A study of Mus musculus with 12 samples.

Results

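The liver of uninjured TRIM21 knockout mice was compared with that of uninjured wild-type mice, using every library of mice that received the vehicle alone. These are 6 of the 12 RNA-seq libraries of the series, 3 per genotype, and the 2 genotypes were measured across 22609 gene symbols. All mice were 8-week-old C57BL/6 males injected intraperitoneally with PBS, and livers were taken at 48 h. The wild-type libraries are titled PBSWT_541, PBSWT_542 and PBSWT_545 and the knockout libraries PBSKO_154, PBSKO_544 and PBSKO_549. The other libraries come from mice given 200 mg/kg of diethylnitrosamine (DEN) by the same route and for the same time, a hepatotoxic carcinogen that the liver activates through cytochrome P450 enzymes: 3 wild type, 2 TRIM21 knockout and 1 labelled heterozygous, which was not used. The injured groups enter below only where a gene's difference at baseline was set beside its difference after injury. The series asks how loss of TRIM21 bears on antioxidant capacity and compensatory proliferation in the liver. The uninjured pair shows what differs between the genotypes before any injury. The sources used here do not give the deleted exons, the origin of the knockout line or the hour at which livers were taken.

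TRIM21 is a cytosolic RING-type E3 ubiquitin ligase that also binds the constant region of antibodies, and it directs antibody-coated viruses and other targets to the proteasome. It ubiquitinates several interferon regulatory factors and the autophagy adaptor p62 (Sqstm1), and through p62 it bears on how KEAP1 holds back NRF2 (Nfe2l2), the transcription factor that switches on glutathione, thioredoxin and detoxification genes. Hepatocytes make most plasma proteins and divide their metabolism between the portal and the central ends of the lobule.

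Gene-assigned counts came to between 17303124 and 22715563 per uninjured library, and between 14628 and 14931 symbols had at least 1 count. Levels are given as CPM, gene-assigned counts scaled to a common library size with TMM factors, and differences as log2 of knockout over wild type with the standard error (SE) from edgeR's quasi-likelihood fit. A gene was called at a Benjamini-Hochberg adjusted p under 0.05. PBSKO_549 stood apart on the first principal component of the 6 libraries (34.0% of the variance, at 38.6 against -12.1 to 0.38 for the others). PBSWT_541 lay apart on the second and PBSKO_154 on the third. The second held 23.5% and the third 22.5% of the variance. The genotypes overlapped on the first and the second. On the third, PBSKO_154 lay at 30.3, the other knockouts at -5.34 and 3.48 and the wild types from -12.8 to -7.15, so that every knockout lay above every wild type. The most alike pair of libraries was PBSWT_545 with PBSKO_544 (Pearson r 0.9925 over 11398 genes), and the least alike was a pair of knockouts, PBSKO_154 and PBSKO_549 (0.972). Reads assigned to no gene were also unequal: per gene-assigned count there were 0.134 to 0.145 in wild type and 0.157 to 0.167 in knockout (exact permutation test, two-sided p = 0.1, the smallest that 3 against 3 can give). Nothing in the labels says that libraries of a group came from separate mice, so the p-values measure only the spread between samples. For edgeR that spread was estimated over 11 libraries, those of injured wild type and knockout included.

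Trim21 itself was almost absent from the knockout libraries. It stood at 6.14, 6.505 and 6.17 CPM in wild type and at 0.181, 0.248 and 0.266 CPM in knockout. The ranges lay far apart, with 324 counts over the wild-type libraries and 13 over the knockout libraries. The difference was -4.71 ± 0.28 (SE; edgeR adjusted p = 3.3e-06), a knockout level of 3.73% of the wild-type level (95% exact interval 1.96 to 6.46%, counting error only). The deposited counts do not say on which exons the 13 counts lie. The value ran from -4.82 to -4.59 when each uninjured library was left out in turn, and the injured knockouts gave -5.68 against injured wild type.

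**Figure D1:**
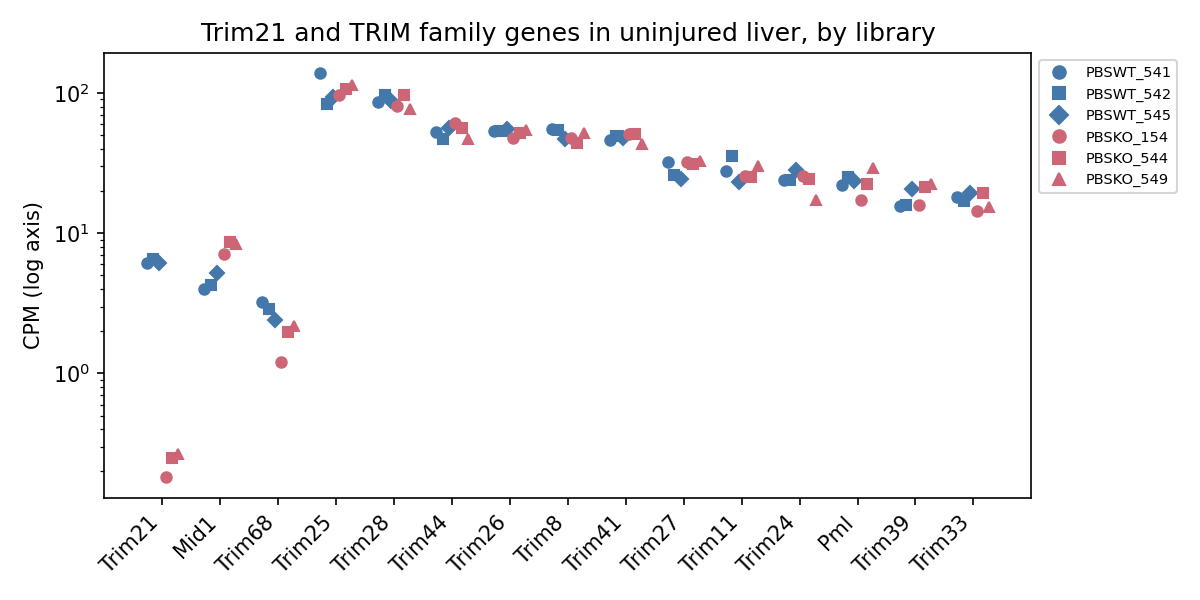
Trim21 and the more abundant TRIM family genes in the 6 uninjured libraries, as CPM on a log axis, each point a library (blue wild type, red knockout). Trim21 is between 0.181 and 0.266 CPM in the knockout libraries and between 6.14 and 6.505 CPM in the wild-type libraries, and Mid1 and Trim68 also do not overlap between genotypes.

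Of 61 other TRIM family members listed, 55 are in the files and 41 were abundant enough to test. Their median difference was 0.005, beside 0.009 over all 13255 genes tested. None was called, and 2 passed an unadjusted p of 0.05, Mid1 upward and Trim46, which stayed under 1 CPM, downward. Trim30a, Trim34a and Trim12a are mouse TRIM genes linked to antiviral defence, and their differences were 0.11, 0.05 and -0.04. Trim68 stood at 3.25, 2.87 and 2.39 CPM in wild type and at 1.21, 1.99 and 2.18 CPM in knockout, without overlap. Its difference was -0.65 ± 0.31 (edgeR unadjusted p = 0.055). Trim68, Trim30a, Trim34a and Trim12a also lie within 5 Mb of Trim21 and are among its neighbours described below. The abundant members were level: Trim25, a RIG-I ligase, averaged 105 CPM in wild type and 106 CPM in knockout, and Trim28, a corepressor of zinc-finger repressors, 90.5 against 85.0 CPM.

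The transcripts of known TRIM21 partners and substrates lay close to their wild-type levels. All 24 partners tested had a 95% interval for the difference that lay inside 2-fold, as did 10317 of all 13255 genes (77.8%). Their median was 0.02. Keap1, the adaptor that marks NRF2 for degradation, averaged 68.7 ± 5.07 CPM in wild type and 71.7 ± 4.16 CPM in knockout (SD, n = 3 each), and Sqstm1 392 ± 40.5 against 388 ± 65.0 CPM. Nfe2l2 stood at 80.4, 78.2 and 84.4 CPM in wild type and at 63.3, 79.3 and 51.9 CPM in knockout. PBSKO_154 and PBSKO_549 lay below every wild type and PBSKO_544 lay among them. The difference was -0.32 ± 0.15 (edgeR unadjusted p = 0.052). It was -0.19 without PBSKO_549 and -0.49 without PBSKO_544. Irf3, which drives interferon-beta transcription, differed by 0.04 ± 0.12, Irf7 by -0.20 ± 0.19 and Irf5 by 0.38 ± 0.20. Ulk1, the kinase that starts autophagy, was the only partner under an unadjusted p of 0.05 (-0.53 ± 0.21). It stood at 155 CPM in PBSWT_541 and at 67.1 to 91.1 CPM in the other 5 libraries, and without PBSWT_541 the difference was -0.20.

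Across the genome few differences passed a test. Trim21 was the only gene called among 13255 (0.00754%), with edgeR, with DESeq2 and with limma-voom alike. Every other gene had an adjusted p of 1 in the edgeR fit, and the lowest for any other gene was 0.061 with DESeq2 and 0.867 with limma-voom. At an unadjusted p under 0.05 there were 508 genes (3.83%), 232 higher (1.75%) and 276 lower (2.08%) in knockout. The count was 932 without PBSKO_544 and ran from 351 to 630 without each of the other uninjured libraries. Without overlap between the libraries of the 2 genotypes, 528 genes were higher (3.98%) and 559 lower (4.22%). The median SE over all genes was 0.187, and of 7640 genes with at least 10 CPM 7272 had an interval that lay inside 2-fold (95.2%). A difference of more than 2-fold was estimated for 318 genes (2.4%), and apart from Trim21 none of these was called.

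**Figure D2:**
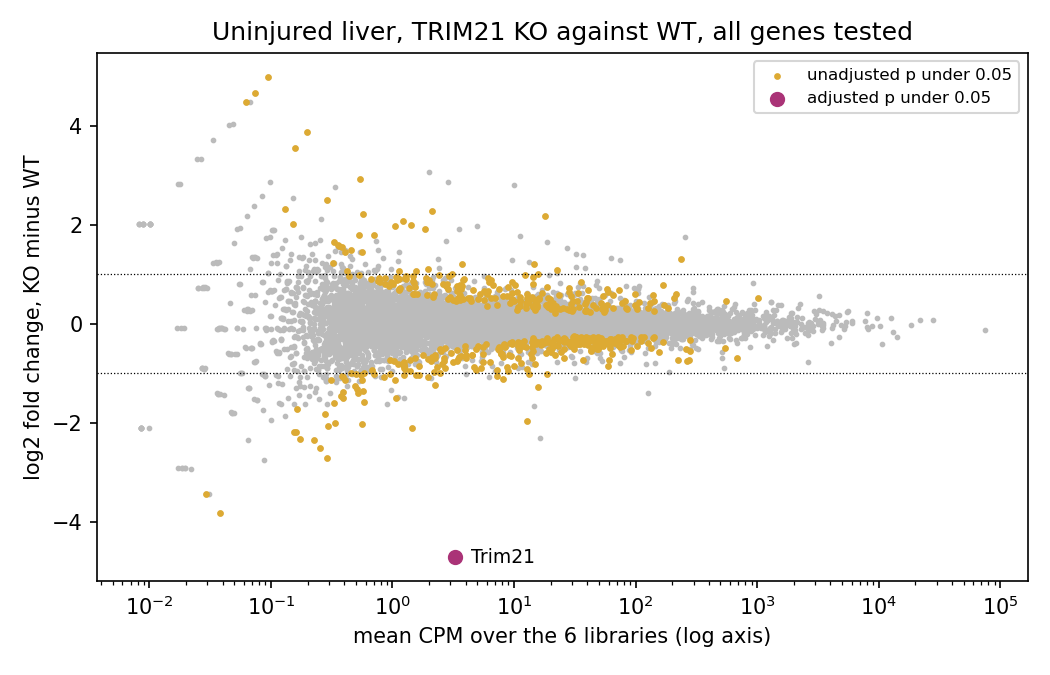
Log2 difference between uninjured knockout and wild type for every tested gene (vertical) against its mean CPM over the 6 libraries on a log axis (horizontal), with genes at an unadjusted p under 0.05 in yellow. Trim21, at -4.71, is the only gene past an adjusted p of 0.05.

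The genes of lowest p, at most 12 in each direction, are given as a ranking, none of them called except Trim21. They were chosen on these same libraries, so a lack of overlap in any of them is not added evidence. Mid1, a microtubule-associated TRIM ligase, stood at 4.02, 4.30 and 5.18 CPM in wild type and at 7.13, 8.64 and 8.36 CPM in knockout. Its difference was 0.84 ± 0.18. Creld2, a secreted chaperone of the endoplasmic reticulum, stood at 48.3, 42.5 and 41.8 against 80.7, 64.8 and 71.9 CPM (0.71 ± 0.16). Every knockout library lay above every wild type for both genes. Atp11a, a phospholipid flippase, ran from 6.73 to 12.3 CPM in wild type and from 15.6 to 24.6 CPM in knockout (1.01 ± 0.23). Lgals1, the glycan-binding galectin-1, stood at 14.2, 14.8 and 12.5 against 29.9, 15.7 and 24.5 CPM (0.75 ± 0.21). PBSKO_544 was barely above wild type for it. Vwf, the von Willebrand factor of vessel walls, averaged 4.98 ± 0.0967 CPM in wild type and 8.55 ± 2.18 CPM in knockout (SD, n = 3 each; 0.78). The remaining higher genes were Gm13889 (1.11), Mdm1 (0.98), Zfp809 (0.73), 6430548M08Rik (0.68), Cnpy4 (0.60), Arhgap23 (0.52) and Nr2c2ap (0.47).

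Among the lower genes, Fnip2, a folliculin partner in nutrient signalling, had the lowest p after Trim21. It stood at 49.5, 44.7 and 44.3 CPM in wild type and at 25.0, 32.8 and 25.1 CPM in knockout (-0.74 ± 0.15). Slc2a2, which encodes the hepatocyte glucose transporter GLUT2, stood at 394, 318 and 328 against 223, 264 and 138 CPM (-0.73 ± 0.20). The groups did not overlap for either gene, and PBSKO_549 was the lowest for Slc2a2. Irf2, a repressor within the interferon regulatory family, stood at 91.4, 76.5 and 64.5 against 48.2, 52.4 and 52.5 CPM (-0.60 ± 0.17). Gnat1, a transducin subunit, ran from 6.44 to 11.7 CPM in wild type and from 3.89 to 6.56 CPM in knockout, with overlap (-0.94 ± 0.26). The others were Arhgap44 (-1.51), Mr1 (-0.92), Sh2d4a (-0.90), Pcmtd2 (-0.51), D930015E06Rik (-0.51), Zfp871 (-0.42) and Tbc1d15 (-0.39). Mr1 presents vitamin metabolites to innate-like T cells.

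The same 23 genes were looked up in the injured livers, whose libraries are different ones, although both contrasts share the estimate of spread. Calls after injury rest on 2 knockout libraries: 1621 genes were higher (12.2%) and 1306 lower (9.85%), against 206 and 50 without DENKO_141. Of the 12 that were higher in uninjured knockout, 4 were called higher, 1 lower and 7 not at all in injured knockout. Of the 11 that were lower, 1 was called lower, 5 higher and 5 not at all. Without DENKO_141 only 1 of the 23 was called, without DENKO_309 4 were and without DENWT_996 4. Creld2 (0.67, edgeR adjusted p = 0.018), Mid1 (0.77, 0.012), Atp11a (1.04, 0.013) and Lgals1 (1.28, 0.0041) had the same sign in both settings. Gnat1 did so downward (-0.86, adjusted p = 0.039). Fnip2 (0.90, 0.0038), Irf2 (0.68, 0.021), Arhgap44 (1.70, 0.019), Pcmtd2 (0.45, 0.04) and D930015E06Rik (0.58, 0.011) were called in the opposite direction, as was Nr2c2ap (-0.67, 0.0081). Over all genes the signs of the 2 contrasts matched for 6469 of 13255.

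NRF2 target genes lay near their wild-type levels at baseline. Of 44 tested, none passed an unadjusted p of 0.05 and the median was 0.05. Nqo1, the quinone reductase most often read as NRF2 output, differed by -0.14 ± 0.24. Gclc, the catalytic subunit that limits glutathione synthesis, stood at 211, 192 and 269 CPM in wild type and 240.2, 225 and 348 CPM in knockout (0.28 ± 0.19), with overlap. Srxn1, which repairs peroxiredoxins, differed by 0.16 ± 0.14, and Hmox1, heme oxygenase-1, by -0.06 ± 0.20. The abundant conjugating enzymes were near level: Mgst1 averaged 5870 ± 303 against 6117 ± 508 CPM and Gsta3 2243 ± 329 against 2427 ± 597 CPM (SD, n = 3 each). The groups overlapped for each of these genes. Of the same 44 genes, 17 were called higher in injured knockout, where 12.2% of all tested genes were. The 17 became 3 without DENKO_141 and 10 without DENWT_996. Of 30 antioxidant genes, 4 of which are also in the NRF2 list, only Gpx7, a peroxidase of the endoplasmic reticulum, passed an unadjusted p of 0.05 (-0.64 ± 0.24), and the median was -0.05. Prdx1, a cytosolic peroxiredoxin, averaged 1014 ± 20.5 and 1068 ± 36.3 CPM.

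Interferon-stimulated genes had a median of 0.07 over 48 tested, -0.22 without PBSKO_549 and -0.03 without PBSWT_545. Only Psmb9, an immunoproteasome subunit, passed an unadjusted p of 0.05. It stood at 33.1, 31.0 and 30.7 CPM in wild type and at 24.3, 22.1 and 26.7 CPM in knockout, without overlap (-0.38 ± 0.14). Isg15, the ubiquitin-like modifier, ran from 13.3 to 17.7 CPM in wild type and stood at 10.6, 11.3 and 36.7 CPM in knockout. PBSKO_549 alone was above wild type. Of the 48, 33 were called higher in injured knockout, against 12.2% of all tested genes, and 5 were without DENKO_141.

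Transcripts of dividing cells were scarce in both genotypes. Of 45 cell-cycle genes tested, only Rrm2, a ribonucleotide reductase subunit, passed an unadjusted p of 0.05 (-0.77 ± 0.32), and the median was 0.04. Mki67, a marker of cycling cells, averaged 2.50 ± 0.895 CPM in wild type and 2.33 ± 0.816 CPM in knockout. Ccnd1, the cyclin of entry into the cycle, averaged 24.8 ± 6.84 and 21.1 ± 6.83 CPM. The SE of Mki67 was 0.41, so only a large difference would have been detectable. Among 36 p53 targets only Sesn1, a stress-induced inhibitor of mTORC1, passed (-0.32 ± 0.15), and the median was -0.03. Cdkn1a, the cell-cycle inhibitor p21, stood at 3.42, 3.69 and 14.6 CPM in wild type and 7.61, 12.6 and 6.23 CPM in knockout, with overlap.

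Of the 32 gene lists, that of the unfolded-protein and ATF4 response held the most genes at a low p. Of 36 members listed, 35 were tested and 7 were higher at an unadjusted p under 0.05, with 1 lower. That is 22.9% of the list against 3.83% of all genes, and none was called. The 7 act in protein folding or disposal at the endoplasmic reticulum: Hspa5, Dnajb11, Sdf2l1, Creld2, Manf, Hyou1 and Syvn1. Hspa5, the chaperone BiP, stood at 868, 804 and 819 CPM in wild type and at 1448, 960.1 and 1178 CPM in knockout (0.53 ± 0.17). Hyou1, its nucleotide-exchange partner, stood at 188, 161 and 160.0 against 307.2, 199 and 267 CPM (0.60 ± 0.18). Sdf2l1, part of the same chaperone complex, stood at 26.7, 29.2 and 20.9 against 46.0, 31.4 and 60.5 CPM (0.84 ± 0.25). Groups did not overlap for these genes, and PBSKO_544 lay nearest to wild type in each. These genes were picked for a low p in the same libraries, so the lack of overlap is not added evidence. Of the 35 tested, 7 were higher without overlap, beside 3.98% of all genes. Manf, a secreted stress factor, differed by 0.59, Syvn1, a ligase of protein disposal from the reticulum, by 0.42 and Dnajb11, a BiP cochaperone, by 0.33.

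The median over the whole list was 0.23, and it ran from 0.17 to 0.39 when each uninjured library was left out. The number higher at an unadjusted p under 0.05 was 15 without PBSKO_544, 4 without PBSKO_154, 4 without PBSWT_545, 5 without PBSWT_541, and 6 without PBSKO_549 or PBSWT_542. By library, the median deviation of the list from the wild-type mean was 0.37 in PBSKO_154 and 0.41 in PBSKO_549 but 0.04 in PBSKO_544, inside the wild-type range of -0.07 to 0.07. Members outside these 7 gave values on both sides of 0. Trib3, a target of ATF4 and CHOP, was the lower one (-1.12 ± 0.36, and -0.71 without PBSWT_541). Ddit3, which encodes CHOP, differed by 0.21, Atf4 by 0.36 and Herpud1 by -0.32. In injured livers 6 of these 7 genes were called higher in knockout, all but Hspa5 (0.08, edgeR adjusted p = 0.8), and Trib3 was called lower (-1.61, adjusted p = 0.019). None of the 7 was called higher without DENKO_141, 2 were without DENKO_309 and 3 without DENWT_996. Over the whole list 12 of 35 were called higher and 4 lower, beside 12.2% and 9.85% of all tested genes, and none in either direction without DENKO_141.

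**Figure D3:**
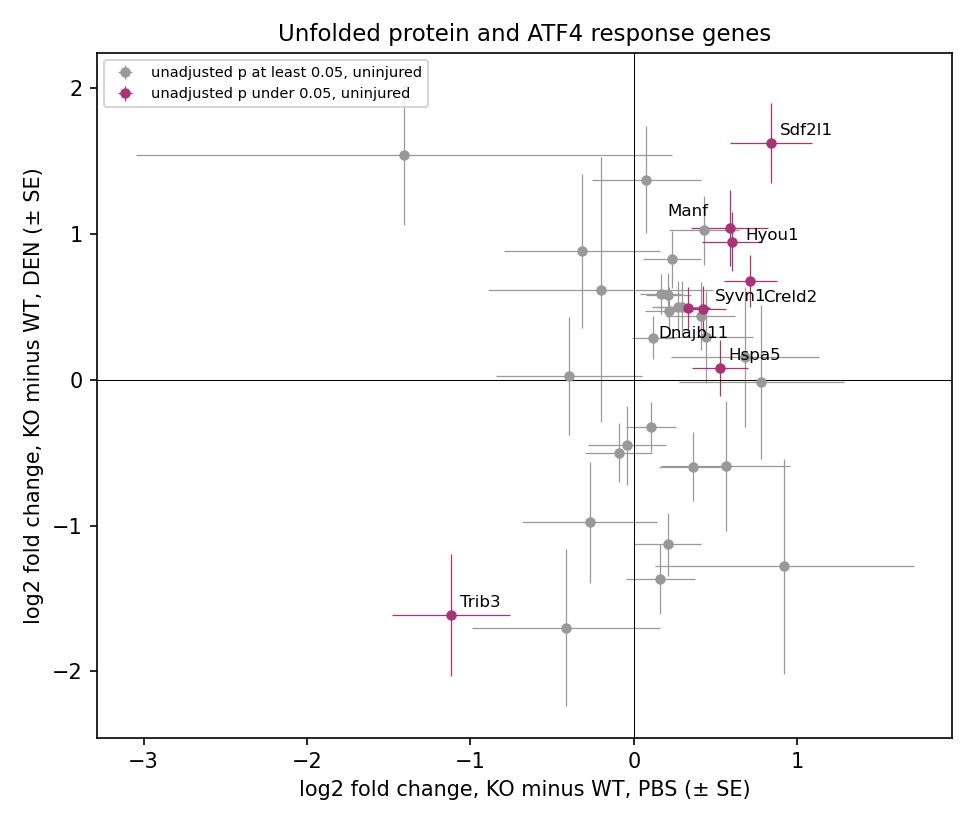
Genes of the unfolded-protein response in uninjured livers (horizontal, log2 knockout over wild type) against the same genes after DEN (vertical), each point a gene with its SE as bars. Genes such as Creld2, Sdf2l1 and Hyou1 lie to the right of and above 0, and Trib3 lies to the left of and below 0.

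Cytosolic heat-shock genes had a median of 0.18, with 21 of 24 above 0. Hspb1, a small heat-shock protein, ran from 1.79 to 3.98 CPM in wild type and from 4.11 to 5.56 CPM in knockout (0.91 ± 0.36), and Ahsa1, an HSP90 activator, from 81.4 to 107 and from 107 to 116 CPM (0.31 ± 0.14). Both passed an unadjusted p of 0.05, and no other gene of the list did. They were 8.33% of the list, beside 3.83% of all genes. The median was 0.089 without PBSWT_542, 0.0995 without PBSKO_544, 0.118 without PBSWT_541 and 0.311 without PBSWT_545. The number passing upward was 0 without PBSKO_544, PBSWT_541 or PBSWT_542, 1 without PBSKO_154, 5 without PBSKO_549 and 6 without PBSWT_545. The inducible Hspa1b, whose counts are uncertain because Hspa1a is nearly identical, instead followed single libraries of both genotypes. It was at 40.2 CPM in PBSWT_545 and 41.0 CPM in PBSKO_544, and at 9.95 to 19.8 CPM in the other 4 libraries.

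Pericentral genes stood near their wild-type levels, and periportal genes leaned slightly downward without a call. Of 34 pericentral genes tested only Znrf3, a Wnt inhibitor, passed an unadjusted p of 0.05 (-0.37 ± 0.16), and the median was 0.03. Cyp2e1, the P450 that activates DEN, averaged 12129 ± 334 CPM in wild type and 13145 ± 3008 CPM in knockout (SD, n = 3 each). Its interval ran from -1.05 to 1.28, so a 2-fold difference in either direction lay within it. The spread behind that interval was estimated over all 11 libraries, injured ones included, and not from the uninjured libraries alone. Cyp1a2 averaged 1656 ± 88.0 and 1601 ± 178 CPM, and Glul, glutamine synthetase of the innermost hepatocytes, 1557 ± 148 and 1654 ± 229 CPM. Of the 29 periportal genes 21 were below 0, and the median was -0.13, from -0.18 to -0.11 as each library was left out. Sds (-0.40), Arg1 (-0.29) and Hsd17b13 (-0.32) were lower in knockout without overlap, 3 of 29 beside 4.22% of all genes. None of these passed an unadjusted p of 0.05. Cyp17a1, a steroid hydroxylase, was the periportal gene that did (-0.79 ± 0.31), with overlap. Pck1, the gluconeogenic enzyme, averaged 4563 ± 556 and 3504 ± 629 CPM, with overlap.

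Lipid synthesis leaned downward without a call. Of 25 genes of fatty acid and triglyceride synthesis 20 were below 0 and the median was -0.22, from -0.37 to -0.11 as each library was left out. The libraries overlapped: the list's median deviation from the wild-type mean was -0.31 in PBSWT_542 and 0.08 and 0.11 in the other wild types. It was -0.36 in PBSKO_154, -0.08 in PBSKO_544 and -0.43 in PBSKO_549. Pklr, liver pyruvate kinase, stood at 344, 235 and 424 CPM in wild type and at 155, 236 and 201 CPM in knockout (-0.76 ± 0.28). Acss2, an acetyl-CoA synthetase, differed by -0.51 ± 0.23, and Scd2, a desaturase, by 0.53 ± 0.20. These 3 passed an unadjusted p of 0.05, 12% of the list against 3.83% of all genes. The number lower at that p was 0 without PBSKO_154 or PBSWT_545. It was 4 without PBSKO_544 or PBSWT_542, and 1 without PBSKO_549 or PBSWT_541. Pklr and Acss2 overlapped between genotypes and Scd2 did not. Scd1, the main liver desaturase, ran from 1622 to 4834 CPM in wild type alone, so its -0.77 ± 0.55 lay within the spread. The 24 cholesterol synthesis genes had a median of -0.14, which was 0.02 without PBSWT_541. PPARα target genes, those of fatty acid oxidation among them, had a median of 0.04 over 41. Txnip, which restrains glucose uptake, was the only one under an unadjusted p of 0.05 (-0.74 ± 0.29).

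None of 21 bile acid genes passed an unadjusted p of 0.05. Cyp7a1, which limits bile acid synthesis, stood at 486, 275 and 233 CPM in wild type and at 196, 493 and 13.7 CPM in knockout. PBSKO_549 was far below the other 5 libraries, which ran together. Nr1h4, the bile acid receptor FXR, stood at 217, 191 and 165 against 144, 149 and 152 CPM without overlap (-0.37 ± 0.13), and was the only one of 28 liver transcription factors under that p. Hnf4a, the master factor of the hepatocyte, averaged 709.6 and 730.0 CPM. All 38 plasma protein genes had an interval inside 2-fold, with a median of 0.02, as did 48 of 49 genes of oxidative phosphorylation. Acute-phase genes had a median of 0.22 over 29, and 0.06 without PBSKO_549, none under an unadjusted p of 0.05.

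Male-biased liver genes had a median of 0.03 over 30 and female-biased genes -0.10 over 21. Both changed sign with a library left out: the male-biased median ran from -0.15 (without PBSKO_549) to 0.10, and the female-biased median from -0.34 (without PBSKO_154) to 0.13 (without PBSKO_549). Elovl3, a male-biased elongase, stood at 118, 64.9 and 227 CPM in wild type and at 203, 242 and 568 CPM in knockout. The groups overlapped, and PBSKO_549 was the highest. The difference was 1.31 ± 0.55 with it and 0.70 without it. Among female-biased genes Cyp17a1 and Cyp2a4 (-1.23) were lower at an unadjusted p under 0.05, 9.52% beside 3.83% of all genes. Cyp2a4 has a near-identical copy, Cyp2a5, so its counts are uncertain.

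Several circadian genes differed many-fold between libraries of the same genotype. Over 20 tested, 1 was higher and 3 lower at an unadjusted p under 0.05 (Nfil3 up, Nr1d2, Cry2 and Hlf down), with a median of -0.37. That is 20% of the list, beside 3.83% of all genes. None passed in either direction without PBSKO_549 (median -0.12) or without PBSWT_541 (-0.34). Without PBSWT_545 there were 3 higher and 4 lower, without PBSKO_544 0 and 4, and without PBSWT_542 0 and 1. Per1 and Per2 are repressors of the clock. Per1 stood at 58.0, 61.3 and 50.4 CPM in wild type and at 76.6, 59.4 and 4.36 CPM in knockout. Per2 stood at 48.8, 69.4 and 85.5 against 57.5, 112 and 15.7 CPM. PBSKO_549 was the lowest for both by a wide margin. Gm129, the repressor CHRONO, stood at 18.5, 22.2 and 9.03 CPM in wild type and at 13.3, 15.3 and 0.426 CPM in knockout, again with PBSKO_549 far below. Dbp, an output factor, ran from 54.4 to 305 CPM in wild type and from 27.7 to 128 CPM in knockout. Arntl, the activator BMAL1, stood at 0.886, 1.74 and 7.50 against 2.54, 5.22 and 10.3 CPM, so the order of the libraries was opposite to that of Dbp in each genotype. The hour of collection is not given, and its part in these values was not tested.

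**Figure D4:**
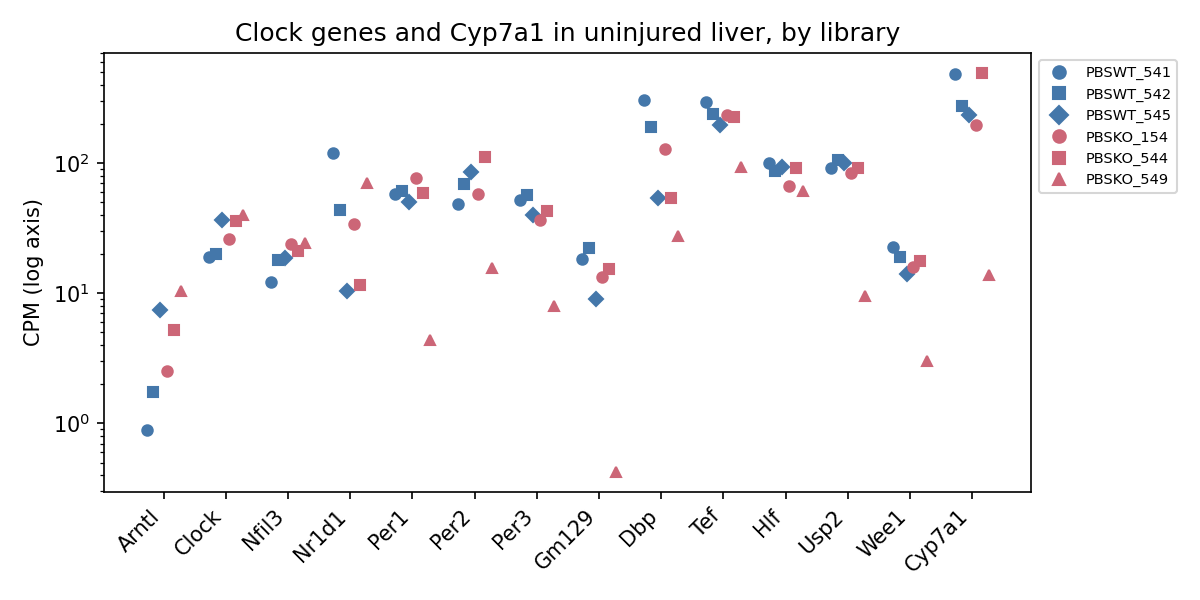
Clock genes and Cyp7a1 in the 6 uninjured libraries as CPM on a log axis, each point a library (blue wild type, red knockout). Per1, Per2 and Gm129 are lowest in PBSKO_549, and Dbp and Arntl differ many-fold between libraries of the same genotype.

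Other genes also differed many-fold between libraries of the same genotype. Moxd1, a copper monooxygenase, ran from 0.177 to 64.2 CPM and Mfsd2a, a lysophospholipid transporter that responds to fasting, from 1.49 to 202 CPM. Nr4a1, an immediate-early nuclear receptor, was at 49.7 CPM in PBSKO_154 and at 1.14 to 2.92 CPM elsewhere. Ccrn4l, the deadenylase nocturnin, was at 8.04 CPM in PBSKO_549 and at 64 to 147 CPM elsewhere. Myc, a growth regulator, was at 56.2 CPM in PBSWT_541 and at 4.46 to 8.68 CPM elsewhere. The last 3 values each belonged to a single library. Of 30 immediate-early genes, Fosb and Egr2 were higher and Klf10 lower at an unadjusted p under 0.05, 10% beside 3.83% of all genes. Fosb was at 2.54 CPM in PBSKO_154 and at most 0.298 CPM elsewhere, and Egr2 stayed under 0.3 CPM in every library. Klf10, a TGF-beta inducible repressor, stood at 28.3, 29.4 and 9.16 CPM in wild type and at 9.96, 7.05 and 10.7 CPM in knockout, with PBSWT_545 among the knockouts (-1.28 ± 0.41).

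Endothelial and Kupffer cell markers summed to their lowest level in PBSWT_541. Of 30 endothelial markers 29 were above 0, the median was 0.27, and Emcn, Gata4, Egfl7 and Vwf passed an unadjusted p of 0.05. Those passing were 13.3% of the list, beside 3.83% of all genes. The summed level was 281 CPM in PBSWT_541, 500 and 504 CPM in the other wild types, and 577, 589 and 451 CPM in knockout. Without PBSWT_541 the median was 0.008 and 1 marker passed upward, and without PBSWT_542 or PBSWT_545 the median was 0.51 or 0.44. Vwf differed from this pattern: its wild-type levels were 5.02, 4.87 and 5.04 CPM, with PBSWT_541 level with the others. In bulk liver, fewer cells of a type and less RNA per cell cannot be told apart. Pecam1, an endothelial adhesion molecule, shows the pattern: 4.61, 9.94 and 9.76 CPM in wild type and 11.4, 11.03 and 11.2 CPM in knockout. Kupffer cell markers, those of the resident macrophages, summed to 895 CPM in PBSWT_541 and to 1362 and 1238 CPM in the other wild types, against 1401, 1390 and 1224 CPM in knockout. Clec4f, a lectin confined to Kupffer cells, stood at 58.0, 119 and 87.7 CPM in wild type and at 79.0, 119 and 122 CPM in knockout. None of 23 markers passed an unadjusted p of 0.05, and their median was 0.25, and -0.03 without PBSWT_541. Fc receptor genes followed them, with 0.23 and -0.02.

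Cholangiocyte markers, of the bile duct cells, leaned the other way. Of 14 tested 13 were below 0 and the median was -0.43, from -0.46 to -0.24 as each library was left out. Their sums were 126, 161 and 159 CPM in wild type and 100.4, 127 and 130 CPM in knockout, which overlap. By gene, 4 of the 14 were lower without overlap, beside 4.22% of all genes. Only Slc5a1, a glucose cotransporter at under 1 CPM, passed an unadjusted p of 0.05. The number lower at that p was 0 without PBSKO_154 or PBSWT_542 and 3 without PBSKO_549. Spp1, osteopontin, averaged 50.8 ± 15.3 and 36.3 ± 5.69 CPM, while Krt19, the defining keratin, stayed under 1.3 CPM in every library. Stellate cell markers had a median of 0.07 over 24, with Rgs5 of the pericytes the only gene passing, upward. None of 16 lymphocyte markers and none of 18 monocyte and neutrophil markers passed. The median of the latter was 0.65, and 0.17 without PBSKO_154. Of 22 listed markers of adipocytes, pancreas, muscle and kidney, 13 had no count in any of the 6 libraries. The list still summed to between 3036 and 4424 CPM per library, so not all of its members are absent from liver. The 3 that were tested were Car3, Cela1 and Fabp4. Fabp4, a lipid chaperone of adipocytes and vessels, was among these 3, at 3.19, 5.07 and 4.25 CPM in wild type and 6.82, 8.94 and 8.09 CPM in knockout (0.93 ± 0.30, without overlap).

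**Figure D5:**
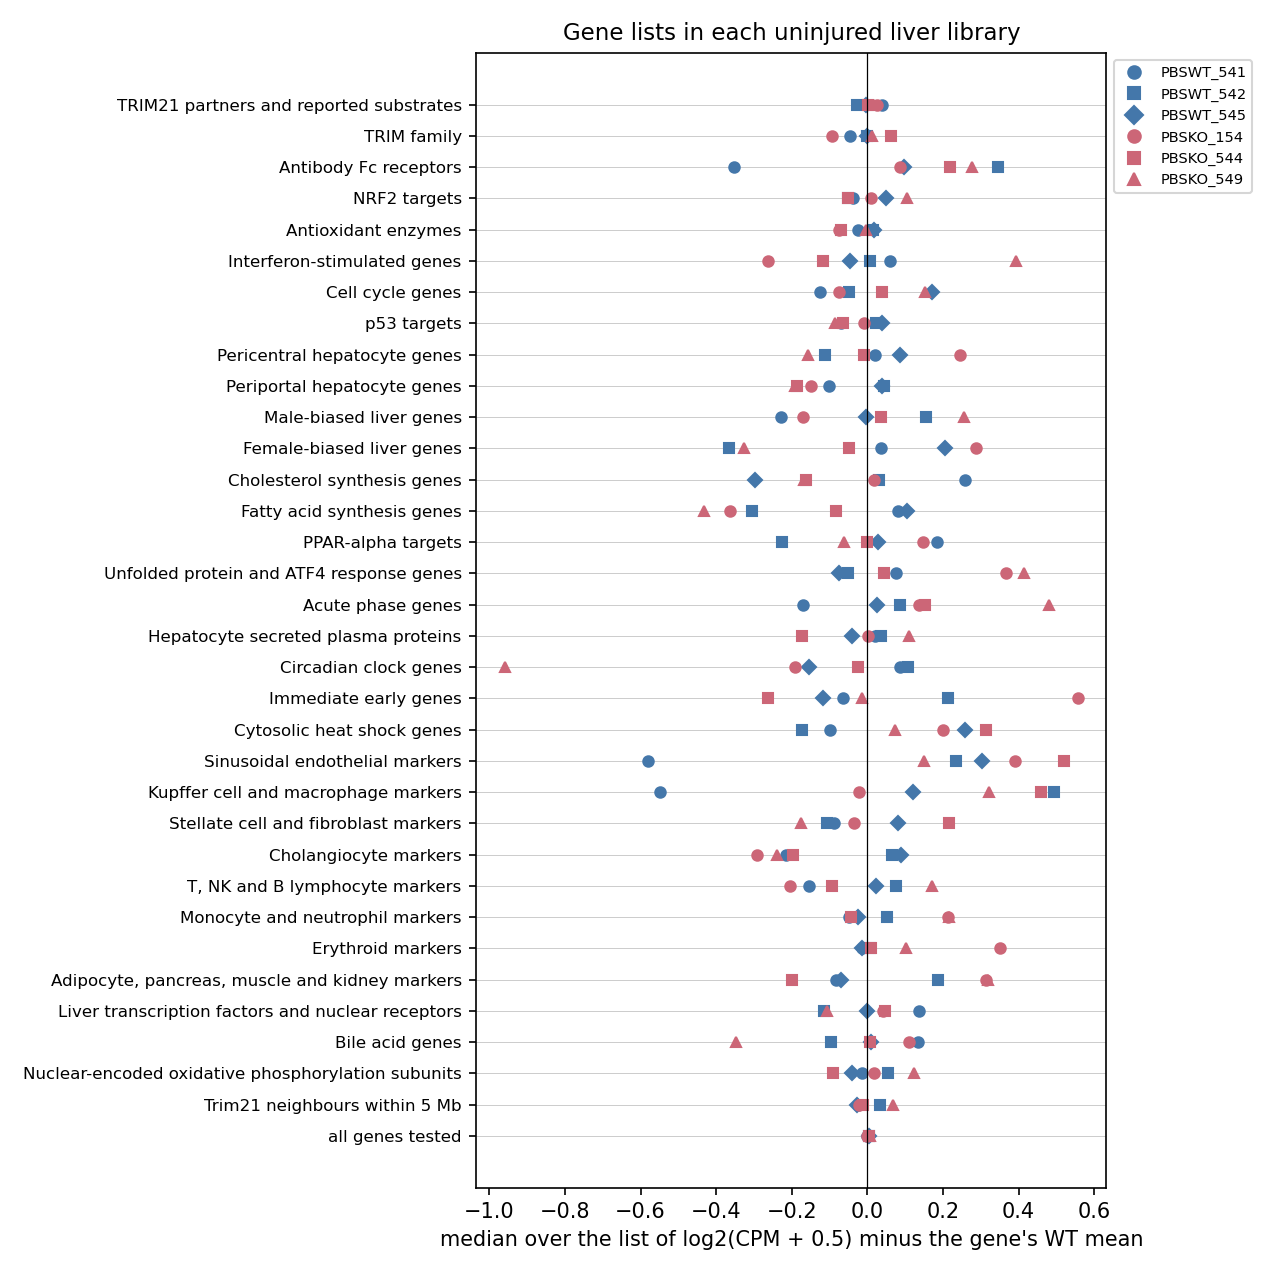
Median over each gene list of log2(CPM + 0.5) minus the gene's wild-type mean, 1 point per uninjured library. The endothelial and Kupffer lists are lowest in PBSWT_541, the clock list is lowest in PBSKO_549, and the unfolded-protein response list is high in PBSKO_154 and PBSKO_549 but not in PBSKO_544.

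Plasma protein genes led the baseline transcriptome of both genotypes. Alb, serum albumin, held 6.81 ± 0.25% of the gene-assigned counts in wild type and 6.28 ± 0.72% in knockout (SD, n = 3 each). The 15 most abundant genes together held 20.6 to 23.8% of each library. After Alb came Apoe (2.37% in wild type, 2.50% in knockout), Serpina3k (1.83 and 1.96%), Trf (1.60 and 1.59%) and Apoa1 (1.34 and 1.13%), which encode lipoprotein components, a protease inhibitor and the iron carrier transferrin. Per kilobase of transcript the order in wild type was Alb at 38666 CPM per kb, Apoa2 at 17244, Apoa1 at 14973, Apoe at 14901 and Fabp1, the fatty acid binding protein, at 10766. Mean levels of at least 1 CPM were reached by 11371 genes in wild type and 11413 in knockout, 11246 in both. At 100 CPM the numbers were 1526, 1522 and 1458.

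Genes near Trim21 were examined because a knockout line can carry flanking sequence of another strain. Of 286 genes of the files that lie within 5 Mb of it, 83 were tested and their median was 0.008. Apart from Trim21 none was called. At an unadjusted p under 0.05, 1 was higher (Pde2a, a cyclic nucleotide phosphodiesterase, 0.44 ± 0.17) and 4 lower, the largest of them Pgm2l1, a sugar bisphosphate synthase (-0.88 ± 0.32). That is 6.02% of the 83, beside 3.83% of all genes. Without overlap between genotypes 4 of the 83 were higher and 7 lower, beside 3.98% and 4.22% of all genes. Trim68, described above with the TRIM family, was among the 7.

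The genes called between the genotypes after injury were centred near 0 before it. Injured knockout had 1621 genes called higher, whose median difference in uninjured liver was -0.0004, with 21 higher and 33 lower at an unadjusted p under 0.05. It had 1306 called lower (9.85%), Trim21 included, whose uninjured median was 0.018, with 28 lower and 30 higher. These counts were 206 and 50 without DENKO_141, 1088 and 654 without DENKO_309, and 770 and 530 without DENWT_996. The change of the genotype difference between the 2 settings, tested as an interaction, was called for 872 genes (6.58%). Mki67 differed by -0.09 ± 0.41 at baseline and by 2.20 ± 0.50 after injury, and Cyp1a2 by -0.05 ± 0.37 and 5.73 ± 0.47. Cyp1a2 was among the genes called in this interaction (edgeR adjusted p = 0.0018), and Mki67 was not. The interaction count rests on few libraries. It was 26 without DENKO_141 and 321 without DENWT_996. It was 372 without PBSKO_154, and 385, 222 and 257 without PBSWT_541, PBSWT_542 and PBSWT_545.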

How the data were processed

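Total liver RNA, depleted of ribosomal RNA with a KAPA kit per the labels' protocols, was sequenced, and the authors deposited a table of whole-number counts per gene symbol for each library. Per the submitters' processing notes, bcl2fastq, TopHat2 and HTSeq were used with build mm9. The sources used here do not give versions, the annotation or the strand setting, so genes that overlap, have antisense partners or have near-identical copies are uncertain. The 5 tally lines that name no gene (71.6 to 78.7% of each uninjured library's total) were left out.

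Counts of 11 libraries in 4 groups were fitted with edgeR 4.0.16 in R 4.3.3 (TMM, default expression filter, robust quasi-likelihood test, Benjamini-Hochberg adjustment over 13255 genes). The common biological coefficient of variation was 0.178. The script was tested on simulated data. No title number occurs in both genotypes, so there was no pairing. DESeq2 1.42.0, limma-voom (limma 3.58.1), other scalings, no filter, the uninjured libraries alone and each library left out were the alternatives. Some were added after the data were seen: leaving libraries out within the uninjured set alone, leaving out PBSWT_541 with PBSKO_549, and the calls of each list after injury without each injured library.

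The members, the 32 gene lists and the named genes were chosen with earlier results of these data known. Named were a fixed set of genes, at most 12 genes of lowest p per direction with a mean of at least 1 CPM, the 15 most abundant genes, the 12 most variable, and the leading members of each list by CPM (4) and p (2). Genes named outside this rule were chosen after their values were seen: Trim68, Trim30a, Trim34a, Trim12a, Pecam1, Myc, Pde2a, Pgm2l1, Cyp2b9, Cyp2c40, Cyp2c69 and the further members of a list beside its leading ones. Lists are described by counts and medians, with no test. Transcript lengths came from the exons of the supplied mouse annotation, which is a later build than the counts.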

Additional observations from a re-analysis of the deposited data

Results flagged for a closer look

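For 13 of 43 genes examined, the difference between knockout and wild type changed between uninjured and DEN-injured livers, tested as an interaction in edgeR with adjustment over all genes. The values below are the injured minus the uninjured log2 difference, and the injured knockouts are 2 libraries. Of the 13, 9 were chosen for a low p in uninjured liver, which the interaction also uses, so these are not independent of the choice. The genes listed by name were chosen with earlier results of these data known. Over all 13255 genes there were 872 such calls (6.58%), and 26 without DENKO_141.

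Among genes listed by name, Nfe2l2 changed by 0.823 (-0.32 uninjured, 0.50 injured; adjusted p = 0.045), Irf7 by 1.71 (-0.20 and 1.505; 0.010) and Cyp1a2, a P450 of the pericentral zone, by 5.78 (-0.05 and 5.73; 0.0018). Fabp4 changed by -1.97, from 0.93 in uninjured to -1.04 in injured liver (0.027).

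Of the genes with a low p in uninjured liver, Gm13889 changed by -1.68 and Nr2c2ap by -1.14, both being higher in uninjured knockout. Those that were lower in uninjured knockout changed upward: Arhgap44 by 3.21, Fnip2 by 1.64, Sh2d4a by 1.60, Irf2 by 1.28, D930015E06Rik by 1.09, Pcmtd2 by 0.963 and Zfp871 by 0.569. Fnip2 had the lowest adjusted p of these (0.0039), with -0.74 in uninjured and 0.90 in injured liver.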

How the results depend on the processing

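Trim21 was the single gene called under every alternative run, with DESeq2, limma-voom, other scalings, no filter, the uninjured libraries alone and each library left out. The number of genes at an unadjusted p under 0.05, 508, ran from 351 to 932 as each uninjured library was left out, the highest without PBSKO_544. In a fit of the 6 uninjured libraries alone it was 386. Such fits gave 303 without PBSKO_154, 812 without PBSKO_544, 240 without PBSWT_541 and 292 without PBSWT_542. The 1087 genes without overlap became 2105 to 2888 as each library was left out, since fewer libraries overlap less often. The interaction count, 872, was 1447 with DESeq2 and ran from 26 (without DENKO_141) to 1161 as each library was left out; the cause was not tested. The uninjured median of genes called higher after injury, -0.0004, was 0.0168 with no scaling beyond library totals and ran from -0.0202 to 0.0089 as each library was left out. That of genes called lower, 0.0179, ran from -0.0030 to 0.0561. For the 226 named genes all 4505 alternative values stayed on their side of the threshold and no called value changed sign, which for all but Trim21 means not called. No paired analysis was possible because no title number occurs in both genotypes. Depth limits genes of a few CPM most. The SE of Mki67, at such a level, was 0.41, and the part of depth in it was not tested.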

Other observations

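PBSKO_154 differed from the other 5 uninjured libraries in several genes of the sex-biased and erythroid lists that are not described above. Cyp2c40 was at 1.51 CPM in it and at 19.0 to 24.5 CPM elsewhere, and Cyp2c69 at 1.39 CPM against 9.29 to 14.6 CPM. Both are P450 genes with near-identical copies, so their counts are uncertain. Cyp2b9, a P450 of the female and the newborn liver, was at 14.4 CPM in this library and at most 1.18 CPM in the others. Serpina1e, a male-biased alpha-1-antitrypsin gene of a multigene family, was at 5269 CPM against 9236 to 15857 CPM. The blood transcript Beta-s was at 206 CPM in PBSKO_154 and at 27.8 to 63.4 CPM elsewhere.

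PBSKO_549 held 21 genes that were more than 2-fold above, and 45 that were more than 2-fold below, the next library, among 7640 genes of at least 10 CPM. The corresponding numbers were 9 and 8 for PBSKO_154, 6 and 12 for PBSWT_541, 1 and 2 for PBSWT_542, and 0 for the remaining libraries.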
